A study of Mus musculus with 5 samples.

Results

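The 8 genes described here, of 16498 in the table, were Sox9, Runx2, Acan, Chad, Comp, Ibsp, Alpl and Mgp. These genes were grouped for their known parts in cartilage formation and mineralisation, with earlier results of these data known. They were followed in mouse aortic arch cells by 3′ single-cell RNA sequencing, in which a barcode marks each cell and a unique molecular identifier (UMI) marks each captured RNA molecule. All mice lacked Apoe, were on a C57BL/6 background, had eaten normal chow for 28 weeks and had atherosclerosis, and the age of the mice was not given in the sources used here. The 2 control libraries, called Apoe-/- below, came from Oasl1+/+Apoe-/- mice, and the other 3 libraries were labelled Oasl1-/-Apoe-/-, so that Oasl1 was the gene that was to differ. Live cells were taken by their DAPI stain, and arches from several mice (n = 6 in the description) were pooled, with no statement of which mice entered which library. Nothing says that the libraries of a group came from separate animals, so the p-values below measure the spread between libraries, which may be technical.

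The 5 libraries held 18260 cells, 3212 to 4338 each, with 16959976 to 19813039 UMIs per library and median UMIs per cell between 4495 and 5186.5. Between libraries, 165 cell barcodes were shared. The UMIs of Oasl1 numbered 27 and 16 in the Apoe-/- group against 299, 257 and 315 under the label Oasl1-/-Apoe-/-, so the targeted gene was higher, not lower, in the libraries labelled as knockouts. Per the study's methods the Oasl1-/- allele lacks the promoter region and an early exon, and a 3′ tag lies outside the deleted exon. Why the UMIs were higher was not tested, and they are not used here to check the labels. Every direction below rests on the labels, and these 3 libraries are called the labelled libraries. Of all cells, 14.1 to 15.3% per Apoe-/- library and 30.1 to 31.7% per labelled library were leukocytes.

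As background, medial smooth muscle cells can lose their contractile proteins in atherosclerotic arteries and take on a modulated state that makes extracellular matrix, and some come to resemble the chondrocytes of cartilage. SOX9 is the transcription factor that sets chondrocyte identity and switches on cartilage matrix genes, and RUNX2 drives chondrocyte maturation and bone formation. Aggrecan, chondroadherin and cartilage oligomeric matrix protein, from Acan, Chad and Comp, build the cartilage matrix. Bone sialoprotein, from Ibsp, binds hydroxyapatite in mineralising tissue. Tissue-nonspecific alkaline phosphatase, from Alpl, removes the mineral inhibitor pyrophosphate, and matrix Gla protein, from Mgp, is itself an inhibitor of vascular calcification.

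In mouse GRCm38 coordinates, all 8 are protein-coding genes, Sox9 at chr11:112782224-112787760, Chad at chr11:94565047-94569127, Acan at chr7:79053483-79115099, Comp at chr8:70373558-70382066 and Ibsp at chr5:104299171-104311469 on the + strand, and Runx2 at chr17:44495987-44814797, Alpl at chr4:137741733-137796384 and Mgp at chr6:136872435-136875823 on the - strand.

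Cells were placed in 4 classes by other marker genes, none of them among the 8. Gated cells numbered 10693, of which 9413 were smooth muscle, 920 modulated, 114 cartilage-like and 246 fibroblast cells. The cartilage-like gate asked for a UMI of at least 3 of 9 cartilage genes. Col2a1, the main cartilage collagen, was found in 97.4% of those 114 cells, Col11a2 in 89.5% and Matn3 in 3.51%. The mean level of Col2a1 was 190.1 UMIs per 10000 UMIs of the cell (CP10K) in cartilage-like cells and 0.0628 CP10K in the other gated cells. Markers of mesothelial and Schwann cells were at 0 in the cartilage-like cells, and summed leukocyte markers stayed between 0 and 0.358 CP10K over the libraries.

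Modulated cells made up 4.09% and 3.44% of the gated cells in the Apoe-/- libraries and 14.0%, 14.0% and 14.1% in the labelled libraries. Cartilage-like cells made up 0.258% and 0.17%, against 1.62%, 2.01% and 2.46%. In numbers these were 7 and 5 cartilage-like cells against 28, 33 and 41. Neither pair of groups overlapped, and the exact two-sided permutation p was 0.1 for both classes, the smallest that 2 against 3 libraries can give. Gated cells near a limit of their class numbered 541 smooth muscle, 227 modulated, 22 cartilage-like and 48 fibroblast cells. The same clusters filled most of the modulated class in both groups, but in different shares. A cluster led by Thbs1 and Vcam1 held 50.0% of the Apoe-/- and 64.8% of the labelled modulated cells, and a cluster led by Saa3 and Cxcl5 held 39.2% and 22%. In the fibroblast class, a cluster led by Hsd11b1 and G0s2 held 58.1% and 38.6% of the cells and a cluster led by Pi16 and Clec3b held 37.1% and 57.6%.

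The levels of Sox9, Acan, Chad, Comp and Ibsp rose from smooth muscle over modulated to cartilage-like cells, whereas Mgp was highest in modulated cells. Sox9 had a mean of 0.196 ± 0.0145 CP10K (SD over 5 libraries) in smooth muscle cells, 0.481 ± 0.0718 in fibroblasts, 1.18 ± 0.215 in modulated cells and 7.40 ± 2.40 in cartilage-like cells. No library of any class reached the range of the next class in that order. Within libraries, Sox9 was higher in modulated than in smooth muscle cells by 2.30 on the log2(CP10K + 0.05) scale (SE 0.18, limma adjusted p = 8.4e-08). In the 3 labelled libraries, which alone held 20 or more cartilage-like cells, it was higher in cartilage-like than in modulated cells by a further 3.05 (SE 0.15, limma adjusted p = 1.0e-18).

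**Figure D1:**
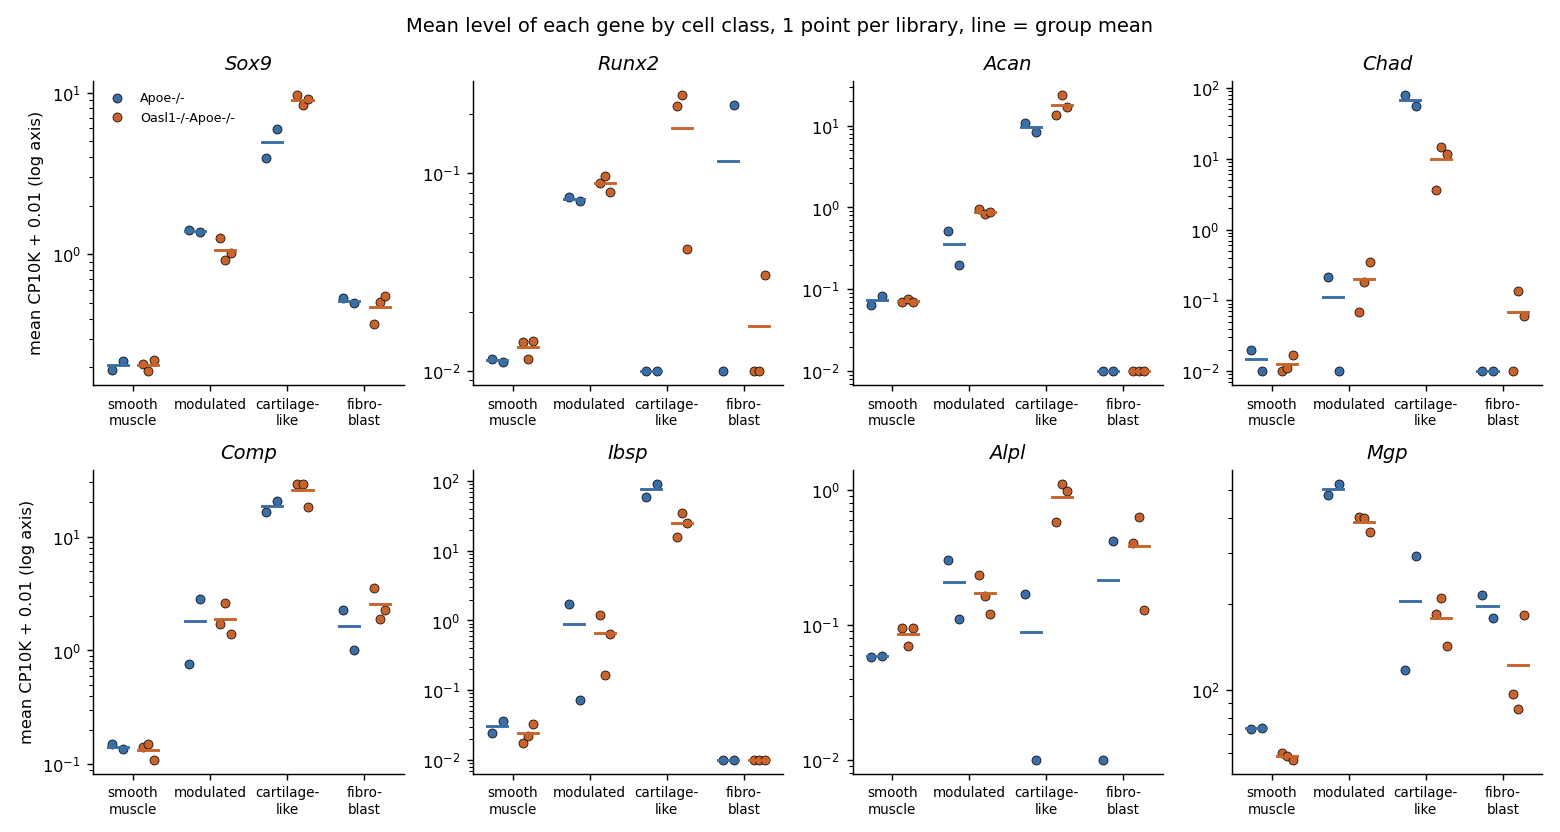
Mean level of each gene (CP10K + 0.01, log axis) in 4 cell classes, with 1 point per library and a line at the mean of the Apoe-/- (blue) and Oasl1-/-Apoe-/- (orange) libraries. Sox9, Acan, Chad, Comp and Ibsp were highest in cartilage-like cells in each of the 5 libraries, Mgp was lower in the orange than in the blue smooth muscle and modulated points, and points at 0.01 stand for a level of 0.

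The modulated class differed from smooth muscle in 6 of the 7 genes that passed the filter on low values, all of them higher, where 11.7% of all tested genes were higher and 10.3% lower (21.9% in all). The differences (log2 scale, limma) were 2.51 for Acan (adjusted p = 2.7e-05), 3.28 for Comp (adjusted p = 1.3e-06), 2.94 for Ibsp (adjusted p = 4.5e-04), 1.61 for Chad (adjusted p = 0.00576) and 2.74 for Mgp (adjusted p = 1.3e-09). Alpl differed by 0.92 (limma adjusted p = 0.243), and Runx2 was under the filter. Chad and Ibsp averaged 0.00359 and 0.0166 CP10K in smooth muscle cells and passed the filter only through modulated cells. Their direction was thus fixed by the filter, and they lend no support to the count of 6. Ibsp in modulated cells came from few cells: 6 of 212 Apoe-/- and 14 of 708 labelled cells held any of its UMIs, and 1 cell held 78.5% of those in the Apoe-/- libraries. Chad came from fewer still, 1 of the 212 Apoe-/- and 8 of the 708 labelled cells. In labelled library 3, 1 modulated cell held 14 of the 15 Chad UMIs.

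Cartilage-like cells of the labelled libraries stood above modulated cells in 6 of 8 genes, where 5.87% of all tested genes did and 22.9% differed in either direction. Ibsp differed most, by 5.41 (limma adjusted p = 3.5e-17), followed by Chad at 5.34 (limma adjusted p = 5.9e-22), Acan at 4.24 (limma adjusted p = 5.4e-22), Comp at 3.73 (limma adjusted p = 2.7e-22) and Alpl at 2.12 (limma adjusted p = 3.4e-07). Mgp, the calcification inhibitor, was lower in cartilage-like than in modulated cells by 1.13 on the log2 scale (limma adjusted p = 2.0e-11), where 17.1% of all tested genes were lower. Runx2 differed by 0.51 (limma adjusted p = 0.406).

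In fibroblasts Comp was detected and Acan and Ibsp were not. No UMI of Acan or Ibsp was found in any of the 246 fibroblasts, which allows a share of up to 1.22% of cells with a UMI. The share with an Ibsp UMI was 0.669% in smooth muscle cells, under that limit. Fibroblasts were also shallower, with median UMIs of 3253 against 4906 in smooth muscle and 7283.5 in modulated cells. Comp differed between fibroblasts and modulated cells by 0.28 (limma SE 0.32, adjusted p = 0.585) and was higher in fibroblasts than in smooth muscle by 3.56 (limma adjusted p = 2.0e-07, with 37.3% of all genes different in that comparison, 17.5% higher and 19.8% lower). Sox9 (1.10, limma adjusted p = 1.2e-04) and Mgp (1.15, limma adjusted p = 9.8e-06) were also higher in fibroblasts than in smooth muscle, and Acan was lower (-1.17, limma adjusted p = 0.0102), a call lost with a pseudocount of 0.5 (-0.17, limma adjusted p = 0.372). Against modulated cells, 5 of 7 tested genes were lower in fibroblasts, where 12.7% of all genes were, 10.9% were higher and 23.7% in all differed. These were Acan by 3.68, Ibsp by 3.35, Mgp by 1.59, Sox9 by 1.21 and Chad by 1.14 on the log2 scale (limma adjusted p between 4.7e-07 and 0.0428). Acan, Ibsp and Chad (0.0355 CP10K in fibroblasts) passed the filter only through modulated cells. The filter thus fixed the direction of Acan, Ibsp and Chad, which lend no support to that count.

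Runx2 was scarce in every class, with 92 UMIs in all cells of the Apoe-/- libraries and 229 in the labelled libraries. Leukocytes held 56.5% and 54.1% of them. In modulated cells 4.25% (Apoe-/-) and 5.51% (labelled) of cells had a Runx2 UMI, beside 4.05% and 3.88% of leukocytes, whose median UMIs were 4343 and 4926 against 6045.5 and 7701.5 in modulated cells. The cartilage-like cells gave 13 Runx2 UMIs in all, from 13 cells of the labelled libraries and none of the 12 Apoe-/- cells.

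The 5 genes Sox9, Acan, Chad, Comp and Ibsp were found together in single cartilage-like cells. A UMI of at least 3 of the 5 was present in 11 of 12 Apoe-/- cartilage-like cells (91.7%) and in 85.3% of the 102 labelled ones. The shares were 3.77% and 4.66% in modulated cells, 0.0932% and 0 in smooth muscle cells and 0 in fibroblasts of both groups. Among labelled cartilage-like cells, Ibsp was found in 30 of 48 cells with Chad (62.5%) and in 8 of 54 without it (14.8%), with median UMIs of 7961 and 8723.5. Among labelled modulated cells, Acan was found in 88 of 258 cells with Sox9 (34.1%) and in 90 of 450 without it, and the cells with Sox9 were deeper, with median UMIs of 8959 against 7144.

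When modulated and cartilage-like cells of the labelled libraries were pooled and split by how many of the 9 cartilage gate genes they showed, Acan had a mean of 0.745 CP10K in the 502 cells with none, 0.918 in the 166 cells with 1, 2.44 in the 40 cells with 2, 10.7 in the 37 cells with 3 to 4 and 22.4 in the 65 cells with 5 to 8. Sox9 went from 0.735 to 10.2 CP10K and Comp from 1.08 to 30.9 CP10K over the same cells. Mgp ran the other way, from 374 CP10K with none and 424 with 1 to 141 CP10K with 5 to 8. Median UMIs were 7425 with none and 8135 with 5 to 8.

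**Figure D2:**
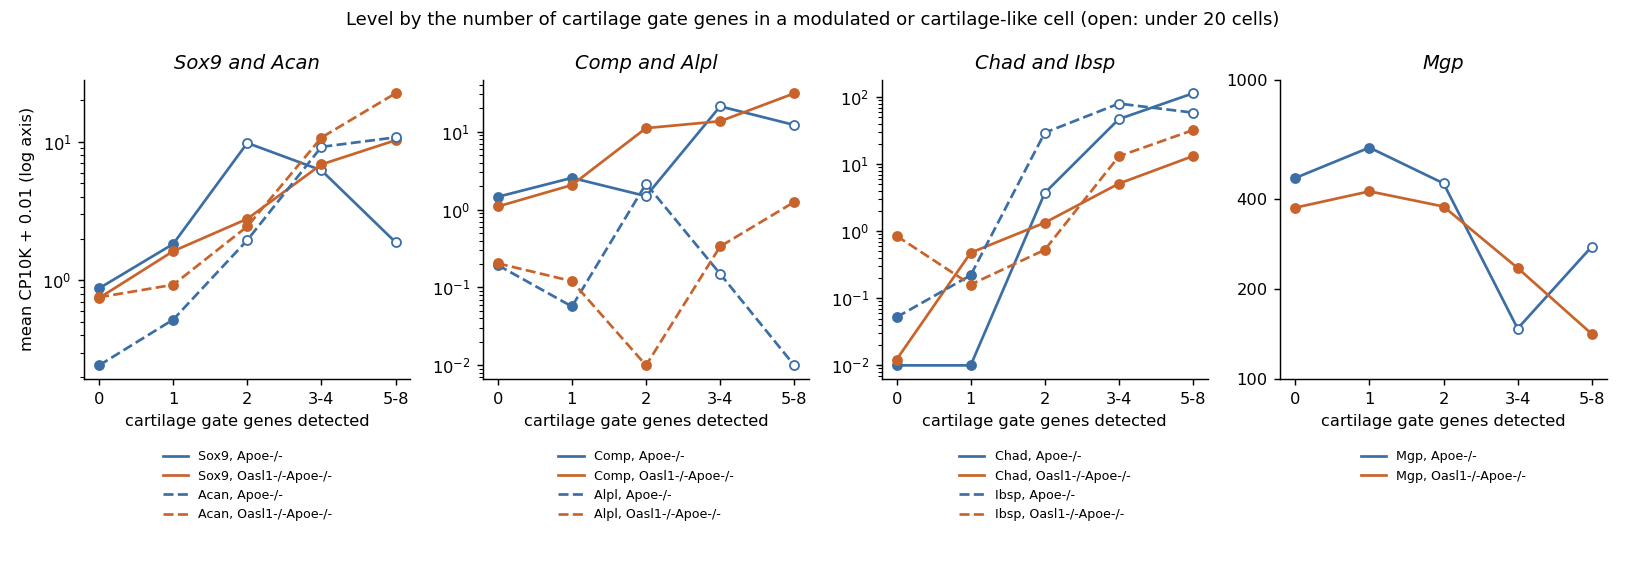
Mean level (CP10K + 0.01, log axis) of 7 of the genes in modulated and cartilage-like cells, by the number of cartilage gate genes detected in a cell, for Apoe-/- (blue) and Oasl1-/-Apoe-/- (orange) cells, with open points where a bin held under 20 cells. In the orange cells Sox9, Acan and Comp climbed with each bin while Mgp ended at its lowest, 141 CP10K.

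Promoter sequence is shown for 3 genes that were highest in cartilage-like cells, with matches to short motifs in capitals. RefSeq (GRCm38.p6) gave a promoter for 5 of the 8 genes, Acan, Chad, Ibsp, Runx2 and Alpl. Both strands of the 250 bases before each start were searched for ACAANG and TGNGGT, with any base at N, which share no overlap here. These are looser than the cores read by SOX and RUNX proteins, and the RUNX core has T or C at N. ACAANG was present in 36.3% and TGNGGT in 40.1% of 32851 mouse promoters of the same length.
Acan, chr7:79052976-79053225, + strand: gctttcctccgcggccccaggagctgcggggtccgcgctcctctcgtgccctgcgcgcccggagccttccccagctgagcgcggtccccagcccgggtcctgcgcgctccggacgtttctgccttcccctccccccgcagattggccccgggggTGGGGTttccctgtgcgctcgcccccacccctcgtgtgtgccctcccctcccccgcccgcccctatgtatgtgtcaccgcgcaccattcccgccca
Chad, chr11:94564797-94565046, + strand: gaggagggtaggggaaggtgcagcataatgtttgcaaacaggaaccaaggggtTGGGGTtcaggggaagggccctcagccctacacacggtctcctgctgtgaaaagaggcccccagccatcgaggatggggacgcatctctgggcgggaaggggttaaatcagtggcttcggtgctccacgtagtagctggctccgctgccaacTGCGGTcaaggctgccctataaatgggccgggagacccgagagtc
Ibsp, chr5:104299037-104299170, + strand: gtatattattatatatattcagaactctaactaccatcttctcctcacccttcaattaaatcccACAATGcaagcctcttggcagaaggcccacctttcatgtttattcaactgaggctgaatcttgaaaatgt
The capitals mark 1 TGNGGT match in Acan (position -96 from the start), 2 in Chad (-197 and -45) and 1 ACAANG match in Ibsp (-186). The Acan match and the Chad match at -197 read TGGGGT, which is not the RUNX core. The Ibsp stretch was cut to the 134 bases that lie outside annotated exons, and a second ACAANG match (-76) lies in the part not shown. Runx2 held 2 TGNGGT matches, and of the 2 Alpl starts 1 held a single ACAANG match and the other 2 ACAANG and 1 TGNGGT match. A match of this length is a description of the letters and not a binding site.

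Across all gated cells pooled, the labelled libraries had higher levels of 6 of the 7 genes that passed the filter, where 11.2% of all tested genes were higher, 5.54% lower and 16.8% in all differed. The median difference of the 7 was 0.87 on the log2 scale, beside 0.01 over all genes. In such pooled values, more cells of a class and more RNA per cell cannot be told apart. Acan was at 0.10 and 0.0898 CP10K in the Apoe-/- libraries and at 0.399, 0.643 and 0.586 CP10K in the labelled libraries. The groups did not overlap, and Acan was higher by 2.01 (SE 0.14, limma adjusted p = 3.2e-07).

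Comp was at 0.231 and 0.262 CP10K against 0.911, 1.14 and 0.803 CP10K. All 3 labelled libraries were above both Apoe-/- libraries, by 1.74 on the log2 scale (SE 0.11, limma adjusted p = 1.4e-07). Sox9 was at 0.246 and 0.260 CP10K against 0.505, 0.459 and 0.555 CP10K, higher by 0.87 (SE 0.08, limma adjusted p = 4.3e-06). Ibsp was at 0.237 and 0.184 against 0.423, 0.726 and 0.712 CP10K, higher by 1.33 (SE 0.17, limma adjusted p = 8.4e-05). For Sox9 and Ibsp too the groups lay apart.

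Alpl was at 0.0577 and 0.0550 against 0.121, 0.119 and 0.112 CP10K, higher by 0.65 (SE 0.09, limma adjusted p = 1.5e-04). Mgp was at 91.3 and 90.8 against 111, 111 and 106 CP10K, higher by 0.26 (SE 0.04, limma adjusted p = 5.6e-04). Neither gene's groups overlapped, as was true of 44.9% of all tested genes. Chad was at 0.223 and 0.0943 against 0.0668, 0.321 and 0.337 CP10K, with overlapping groups and a difference of 0.37 (limma adjusted p = 0.593). Without labelled library 1, the lowest of the 5, Chad differed by 0.93 (limma adjusted p = 0.00133). Runx2, under the filter, was at 0.00413 and 0.00557 against 0.0177, 0.0183 and 0.0149 CP10K.

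The class makeup moved with these values. When every library was given the same class weights, 86.1% smooth muscle, 9.93% modulated, 1.30% cartilage-like and 2.64% fibroblast cells, the difference of Sox9 was 0.07 (limma adjusted p = 0.689) and that of Comp 0.25 (limma adjusted p = 0.394). Acan was higher by 0.69 (limma adjusted p = 0.00188), and Alpl by 0.38 (limma adjusted p = 0.0285). Mgp was lower, at -0.36 (limma adjusted p = 1.2e-04). Ibsp and Chad were lower too, at -1.34 (limma adjusted p = 6.5e-06) and -2.32 (limma adjusted p = 1.4e-04), values that rest on 12 Apoe-/- cartilage-like cells. With the cartilage-like cells and the rest of their cluster left out, the differences were 0.82 for Acan (limma adjusted p = 1.8e-05), 0.69 for Comp (limma adjusted p = 7.4e-05), 0.35 for Sox9 (limma adjusted p = 0.0234) and 0.89 for Ibsp (limma adjusted p = 0.0772).

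**Figure D3:**
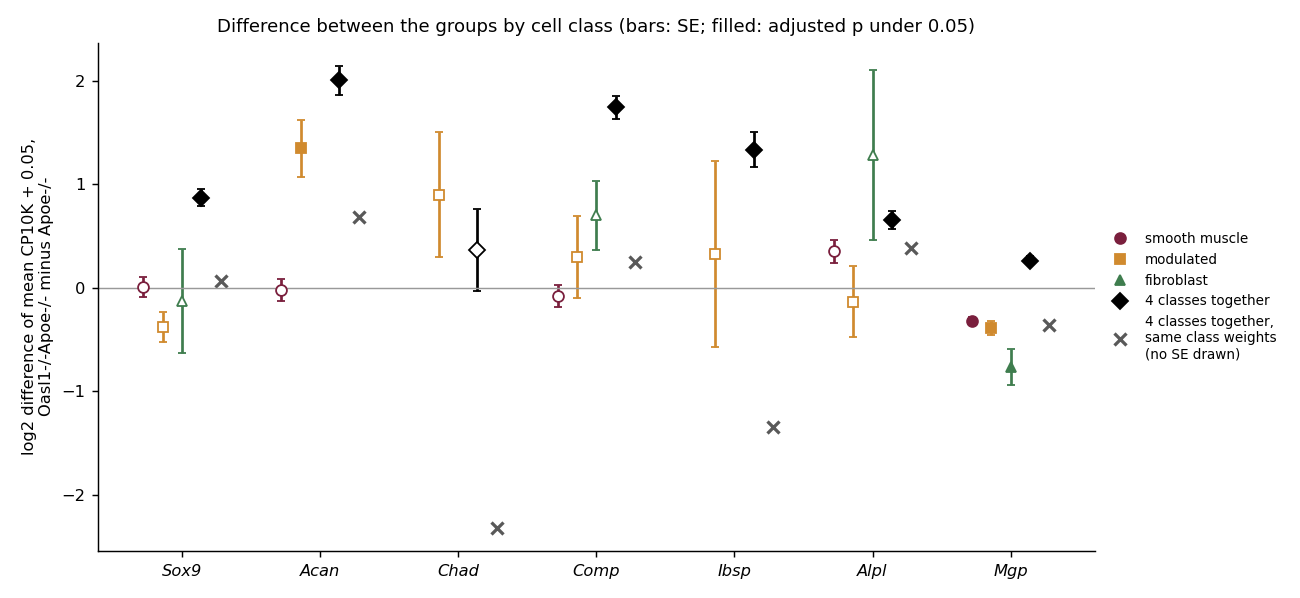
Difference between the groups (log2 of mean CP10K + 0.05, Oasl1-/-Apoe-/- minus Apoe-/-) for 7 genes within 3 classes, in the 4 classes together, and with the same class weights in every library (crosses), with bars for SE and filled symbols for a limma adjusted p under 0.05. Sox9 and Comp passed the test in the pool and in none of the classes, Acan passed in the pool and in modulated cells, and Mgp was above 0 in the pool and below 0 in each class.

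The classes that supplied the UMIs of most of these genes also differed between the groups. Smooth muscle cells held 61.7% of the Sox9 UMIs in the Apoe-/- libraries and 17.9% in the labelled libraries, and cartilage-like cells 4.11% and 34.6%. For Acan, smooth muscle cells held 53.3% and 5.74% and cartilage-like cells 21.6% and 62.4%. For Comp, cartilage-like cells held 12.6% and 49.9%. Ibsp UMIs lay mostly in cartilage-like cells in both groups, with 84.7% and 82.8% of its UMIs in those cells. Mgp came mainly from smooth muscle cells in the Apoe-/- libraries (56.1%) and from modulated cells in the labelled libraries (47.9%).

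A further 11 cells, all in the labelled libraries, showed at least 3 cartilage gate genes but also too many leukocyte or endothelial markers for the gates. In labelled library 3, 4 such cells with 2 to 7 leukocyte markers held 52.6% of all Chad UMIs, 39.1% of Comp and 23% of Ibsp. A single one of them, with 2 leukocyte markers, gave 595 Comp, 271 Ibsp and 206 Chad UMIs. These cells entered no class level and no group comparison, but they count among the other cells in the shares of UMIs. Of the UMIs in gated cells alone, cartilage-like cells of the labelled libraries held 62.5% of Comp, 92.5% of Chad and 92.6% of Ibsp.

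**Figure D4:**
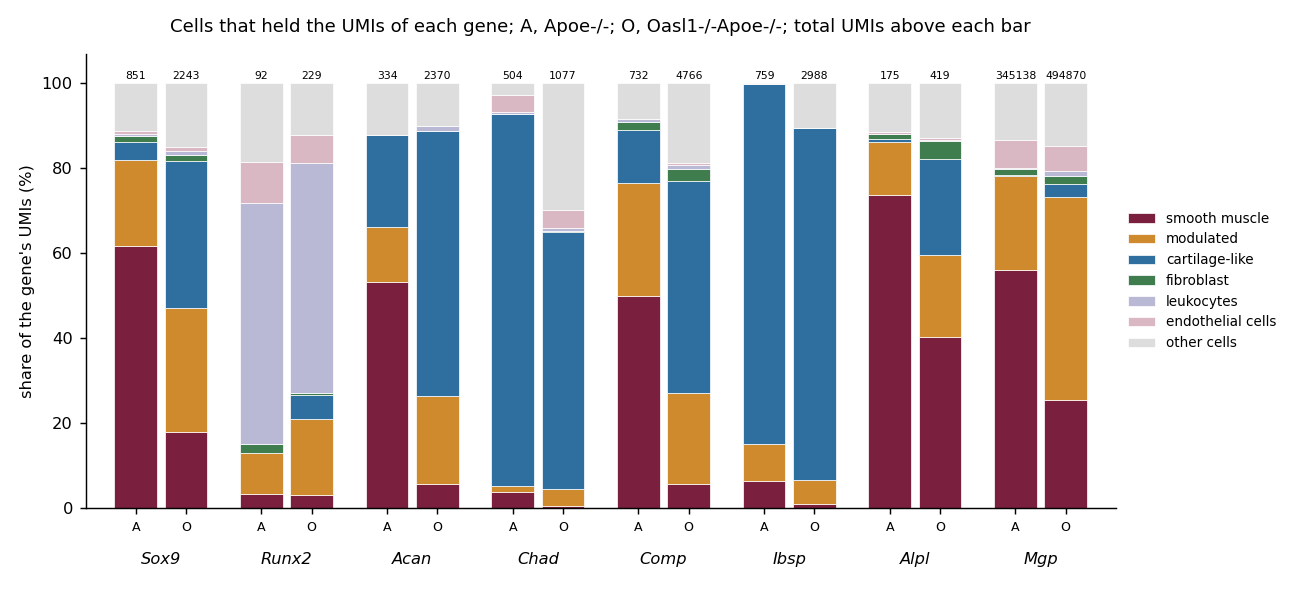
Share (%) of each gene's UMIs held by the 4 classes, leukocytes, endothelial cells and other cells, in the Apoe-/- (A) and Oasl1-/-Apoe-/- (O) libraries, with the total UMIs above each bar. Cartilage-like cells held 62.4% of Acan UMIs in the O bar and 21.6% in the A bar, and leukocytes held 56.5% and 54.1% of Runx2 in A and O.

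Within smooth muscle cells Mgp was lower in the labelled libraries and the other 4 genes tested did not pass. This was 1 of 5 genes lower in the labelled libraries, where 2.35% of all genes were lower, 4.31% higher and 6.66% in all differed. Mgp was at 72.9 and 73.8 CP10K in the Apoe-/- libraries and at 60.2, 58.9 and 56.9 CP10K in the labelled libraries. The labelled values were all lower, and the means of 73.3 ± 0.587 (SD, n = 2) and 58.7 ± 1.66 (SD, n = 3) differed by -0.32 on the log2 scale (SE 0.04, limma adjusted p = 2.7e-05).

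Alpl in smooth muscle cells was at 0.0479 and 0.0494 against 0.0851, 0.0595 and 0.0851 CP10K, groups that did not overlap, as in 36.7% of all genes. Its difference of 0.35 did not pass the test (SE 0.11, limma adjusted p = 0.0696), and without labelled library 2 it was 0.45 (limma adjusted p = 0.0224). Sox9 was at 0.184 and 0.207 against 0.201, 0.179 and 0.211 CP10K, a difference of 0.01 (SE 0.09, limma adjusted p = 0.972). Acan differed by -0.02 (SE 0.11, limma adjusted p = 0.949) and Comp by -0.08 (limma adjusted p = 0.747). Chad, Ibsp and Runx2 were under the filter. The smooth muscle class also differed in makeup, with a cluster led by Des and Rgs5 at 11.7% of the Apoe-/- and 5.96% of the labelled cells and one led by Tnnt2 and Kcnj15 at 8.57% and 12.9%. Summed erythroid markers were at 10.4 and 15.2 against 6.03, 2.17 and 2.02 CP10K, and median mitochondrial shares were 5.62% and 6.44%. Their part in the Mgp and Alpl values was not tested, and with cells classed by cluster Mgp was lower by a like amount (-0.32, limma adjusted p = 3.6e-05).

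Within modulated cells Acan was higher and Mgp lower in the labelled libraries. These were 2 of 8 genes tested, where 1.95% of all genes differed, 1.34% of them higher and 0.609% lower. Acan was at 0.509 and 0.188 CP10K in the Apoe-/- libraries and at 0.952, 0.812 and 0.876 CP10K in the labelled libraries. The groups did not overlap, and the means of 0.348 ± 0.227 (SD, n = 2) and 0.880 ± 0.0697 (SD, n = 3) differed by 1.35 on the log2 scale (SE 0.27, limma adjusted p = 0.0278). The call was lost without labelled library 1 (1.29, limma adjusted p = 0.156), 2 (1.40, limma adjusted p = 0.138) or 3 (1.35, limma adjusted p = 0.164). It was kept without the cells of the cartilage-led cluster (1.48, limma adjusted p = 0.0255). Without Apoe-/- library 2, which left 1 library in that group, the difference was 0.73.

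The share of modulated cells with an Acan UMI was 18.9% and 9.90% against 23.2%, 26.4% and 25.8%. In the groups it was 14.6% (95% Wilson interval 10.5 to 20.01) of 212 cells and 25.1% (22.1 to 28.5) of 708 cells, intervals that cover counting error only. In leukocytes, which should lack the gene, Acan was found in 0 of 1236 cells (up to 0.243%) and in 0.431% of 3018 cells. The exact permutation p of the share was 0.1, adjusted 0.40 over genes and classes. The modulated cells of the labelled libraries were deeper, and with each cell thinned to 1000 UMIs the shares averaged 2.78% and 5.29% and still did not overlap. For how many of all genes the shares lay apart was not counted.

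Mgp in modulated cells was at 481 and 526 CP10K against 401, 400 and 356 CP10K. All labelled values were lower, and the means of 503 ± 31.9 (SD, n = 2) and 386 ± 25.5 (SD, n = 3) differed by -0.39 (SE 0.07, limma adjusted p = 0.0127). The call was lost without labelled library 2 (-0.41, limma adjusted p = 0.105) or 3 (-0.33, limma adjusted p = 0.0947), and when cells were classed by cluster the difference was -0.15 (limma adjusted p = 0.235).

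Sox9 in modulated cells was at 1.39 and 1.35 against 1.25, 0.910 and 1.0 CP10K, apart, as was true of 4 of the 8 genes and 32.3% of all genes, but with a difference of -0.38 that did not pass (SE 0.14, limma adjusted p = 0.231). Comp spread widely, at 0.749 and 2.83 against 1.68, 2.58 and 1.38 CP10K, a difference of 0.30 (limma adjusted p = 0.767). Ibsp ranged from 0.0624 to 1.71 CP10K and Chad from 0 to 0.334 CP10K over the 5 libraries, each with overlapping groups. Runx2 differed by 0.17 (limma adjusted p = 0.801) and Alpl by -0.13 (limma adjusted p = 0.896). For 3 of these genes the difference turned on 1 Apoe-/- library: without library 1 Chad differed by 2.07 and Ibsp by 2.31, and without library 2 Comp differed by 1.22. Each of these fits left 1 Apoe-/- library, with no spread in that group, so no p-value is given. The summed erythroid markers of the modulated cells were at 1.77 and 89.7 CP10K in the Apoe-/- libraries and 0.40 to 0.490 CP10K in the labelled libraries, and their part in these values was not tested.

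Within fibroblasts Mgp was lower in the labelled libraries, 1 of 4 genes tested, where 0.451% of all genes were lower, 1.31% higher and 1.76% in all differed. It was at 214 and 178 CP10K against 96.6, 85.8 and 183 CP10K. The groups overlapped through labelled library 3, and the means of 196 ± 25.3 (SD, n = 2) and 122 ± 53.1 (SD, n = 3) differed by -0.77 (SE 0.18, limma adjusted p = 0.0132). The call was lost without labelled library 1 (-0.64, limma adjusted p = 0.487) or 2 (-0.56, limma adjusted p = 0.502). Without Apoe-/- library 1 or 2, which left 1 library in that group, the difference was -0.63 or -0.90. On the means of the deposited log values Mgp differed by -0.049 (limma adjusted p = 0.910) and Comp passed in its place (0.31, limma adjusted p = 0.0359). The share of fibroblasts with an Mgp UMI was higher in the labelled libraries, at 95.7% against 87.1% on average with no overlap (exact permutation p = 0.1, adjusted 0.40). In leukocytes the shares were 41.4% and 34.5%. With fibroblasts thinned as the modulated cells were, the shares averaged 87.0% against 77.2% and the groups overlapped (exact permutation p = 0.3, adjusted 0.71). The separation of the Mgp shares was thus lost at equal depth, and how often shares lay apart over all genes was not counted. Comp was at 2.25 and 0.998 against 3.56, 1.88 and 2.27 CP10K, a difference of 0.70 (limma adjusted p = 0.451), and Sox9 lay between 0.358 and 0.540 CP10K in all libraries. Alpl was at 0 and 0.410 against 0.395, 0.619 and 0.119 CP10K (limma adjusted p = 0.598). Summed mesothelial markers were at 0 in both Apoe-/- libraries and at 0.0938 to 2.21 CP10K in the labelled libraries, and their part in these values was not tested.

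Within cartilage-like cells no test of the levels was made between the groups, since the Apoe-/- libraries held only 7 and 5 of them. Sox9 was at 3.94 and 5.93 CP10K in those libraries and at 9.66, 8.33 and 9.12 CP10K in the labelled libraries. Acan was at 10.7 and 8.27 against 13.4, 23.7 and 16.9 CP10K. The labelled values of both genes were the higher ones, with no overlap. In smooth muscle, modulated and fibroblast cells the groups lay apart for 36.7%, 32.3% and 27.2% of all genes. This was not counted for cartilage-like cells.

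Chad and Ibsp stood the other way. Chad was at 79.7 and 55.5 against 3.61, 14.5 and 11.5 CP10K, and Ibsp at 59.7 and 92.1 against 15.6, 34.6 and 24.6 CP10K. The Apoe-/- values were all higher, but 1 cell gave 40.0% and 72.5% of the Chad UMIs and 57.2% and 38.8% of the Ibsp UMIs in those 2 libraries. In the labelled libraries 1 cell gave 45.7%, 15.8% and 19.7% of the Chad UMIs and 34.9%, 37.5% and 54.2% of the Ibsp UMIs. Chad was found in 9 of 12 Apoe-/- cells and 48 of 102 labelled cells, and Ibsp in 8 of 12 and 38 of 102. Comp was found in 6 of 12 and 83 of 102 cells. For each of these 3 genes the library shares did not overlap, also after thinning to 1000 UMIs per cell, and the exact permutation p was 0.1, adjusted 0.40. How often such shares lay apart over all genes was not counted.

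The other levels in cartilage-like cells were less uniform. Comp was at 16.4 and 20.4 against 29.2, 29.0 and 18.0 CP10K, with overlapping groups. Mgp was at 117 and 293 against 185, 209 and 142 CP10K, also overlapping. Alpl was at 0.159 and 0 against 0.571, 1.11 and 0.972 CP10K, where the Apoe-/- cells gave 1 UMI in all. Summed smooth muscle markers of these cells were at 23.2 and 39.7 CP10K in the Apoe-/- libraries and 4.03 to 11.0 CP10K in the labelled libraries, and their part in these values was not tested.

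Whether the groups differed more in one class than in another was tested on the differences within libraries, and by limma none passed of the 8 genes for modulated against smooth muscle cells, of the 5 that could be tested for fibroblasts against smooth muscle cells, or of the 8 for fibroblasts against modulated cells, where 0.0511%, 0.0587% and 0% of all genes did. At an unadjusted p under 0.05, Acan alone stood out in 2 of the pairs. Its difference was larger in modulated than in smooth muscle cells by 1.37 (SE 0.40, limma adjusted p = 0.319) and smaller in fibroblasts, where it was not detected, than in modulated cells by 1.35 (limma adjusted p = 0.497).

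Other genes of cartilage and bone were read from 4 lists that held none of the 8 genes or gate genes. In the pool, where 11.2% of all genes were higher and 5.54% lower, 9 of 12 tested cartilage matrix genes were higher in the labelled libraries and none was lower, among them Fmod (fibromodulin, a collagen-binding proteoglycan; 2.09 on the log2 scale), Prg4 (lubricin; 1.45) and Col27a1 (a fibrillar collagen of cartilage; 0.96). Of 13 regulators of chondrocytes, 4 were higher and none lower, at 0.81 for Bmp4, 0.80 for Runx1, 0.34 for Pth1r and 0.31 for Trps1. Of 6 bone genes, Spp1 (osteopontin; 2.41), Col1a1 (1.25) and Sparc (osteonectin; 0.64) were higher and Atf4 (-0.29) was lower. Of 10 genes of mineral control and vitamin K-dependent carboxylation, 5 were higher, from 0.23 for Anxa2 and Vkorc1 to 0.43 for Gas6, and Anxa6 was lower (-0.18). The list medians were 0.52 for cartilage matrix, 0.32 for bone, 0.23 for mineral control and 0.06 for regulators, beside 0.01 over all genes.

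Within the classes fewer genes of any kind passed than in the pool, 6.66%, 1.95% and 1.76% of all genes in smooth muscle, modulated and fibroblast cells against 16.8%. In modulated cells, where 1.34% of all genes were higher, 3 of 8 bone genes were higher, and Col1a1, the main collagen of bone and scar, was at 18.5 and 27.2 against 50.5, 42.1 and 50.2 CP10K. The groups were apart, by 1.08 on the log2 scale (limma adjusted p = 8.1e-04). Sparc was higher by 0.47 and Postn by 0.49, the latter not by limma-voom (adjusted p = 0.108), while Gas6, which like Mgp carries Gla residues, was lower (-0.67, limma adjusted p = 9.4e-04). None of 12 regulators (4 at an unadjusted p under 0.05, none by limma-voom) or 13 cartilage matrix genes (4, and 1 by limma-voom) passed in modulated cells by limma. In smooth muscle cells Spp1 was higher (1.22, limma adjusted p = 2.1e-08) and Atf4 lower (-0.29, limma adjusted p = 0.00236). Spp1 was at 0.185 and 0.148 against 0.413, 0.477 and 0.473 CP10K there, and the summed leukocyte markers of the same cells were at 0.127 and 0.141 against 0.258, 0.327 and 0.268 CP10K, whose part in the difference was not tested. By limma none passed in smooth muscle cells of 11 regulators (none at an unadjusted p under 0.05), 7 matrix genes (5) or 10 mineral control genes (2), nor did any of these by limma-voom. In fibroblasts Gas6 was higher (1.10, limma adjusted p = 3.4e-04), and Spp1 was higher (3.04, limma adjusted p = 0.00675) with labelled library 3 at 12.9 CP10K and the other 4 at 0.163 to 1.39. By limma-voom Gas6 passed and Spp1 did not (adjusted p = 0.517). Cilp and Epyc, listed at 0 in both Apoe-/- libraries, were at 0.858 to 1.57 and 0.543 to 0.907 CP10K in the labelled libraries, and passed by limma, Cilp also by limma-voom and Epyc not (adjusted p = 0.0709). Both genes passed the filter on low values only through the labelled libraries, so their direction was fixed and these calls lend no support. The Apoe-/- libraries held 30 and 32 fibroblasts. None of 13 regulators passed in fibroblasts by limma (1 at an unadjusted p under 0.05) or limma-voom.

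Genes with the pattern most like each of the 8 were sought over 18 class-by-library means of 9481 genes, as a description, since the classes of a library share its cells and depth. Sparc followed Sox9 (Pearson r = 0.98), Nos2 and Sdc4 followed Acan (r = 0.98 each), and Lbhd2 followed Ibsp (r = 0.98). Col2a1 and Fzd9 were close to Chad (r = 0.95 each), and Fmod to Comp (r = 0.96). Spry2 was closest to Alpl (r = 0.97), Kdm7a to Runx2 (r = 0.90) and Sdc1 to Mgp (r = 0.92). Among the 8 genes themselves, Acan and Ibsp ran most alike (r = 0.97) and Alpl and Mgp least (r = 0.16).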

How the data were processed

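Aortic arch cells were sequenced with the 10x 3′ v2 kit and, per the labels, mapped to mm10 with Cell Ranger 3.1.0 and handled in Seurat 4.0.3. The authors removed cells of few genes or high mitochondrial content and doublets, and deposited natural log values, ln(1 + UMIs per 10000 UMIs of the cell). These were turned back to CP10K, which summed to 10000 in every cell within 0.00344, and to UMIs, which came out whole for 100% of values within 0.01.

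Each cell was scored for marker lists, and the classes were set by limits of 2.5, 1.2 and 0.8 on the mean smooth muscle, modulated and fibroblast scores (under 1.0 smooth muscle score for fibroblasts), at least 3 cartilage genes, and at most 1 leukocyte and 1 endothelial marker. The limits were set after the marker distributions were seen, and the 8 genes and all lists were chosen with earlier results of these data known. Leukocytes used for background had at least 4 markers. A cell on either side of a limit may be misplaced.

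The library was the replicate. Mean CP10K per class and library, as log2(mean + 0.05), was tested by limma 3.58.1 in R 4.3.3 (lmFit, eBayes with trend, two-sided, Benjamini-Hochberg over all genes with a mean of at least 0.05 CP10K), in classes with at least 20 cells in every library. A fold on this scale understates the change of low genes. The threshold was an adjusted p of 0.05. Comparisons between classes had the library as a block. Shares were compared by an exact permutation test (scipy 1.17.1) and clusters were made with scanpy 1.11.5. The limma fit between the groups was run on simulated libraries with known changes, for smooth muscle, modulated and fibroblast cells. The other steps were not simulated. Same-numbered libraries did not deviate together (r between -0.0346 and 0.0259), so libraries were not treated as pairs. Alternatives were other pseudocounts, no filter, limma-voom with trimmed-mean-of-M-values scaling on summed UMIs, a replicate block, leaving out each library, clusters or stricter limits in place of the gates, the deposited log values, equal class weights and, added after the data were seen, leaving out the cluster led by cartilage genes. All 8 genes were named in every class. From the pathway lists, genes past the threshold could be named, at most 6 per list by size, and for likeness up to 3 genes each. Genes of mouse GRCm38 and promoters came from GENCODE and RefSeq tables, in which 16324 of the symbols (98.9%) were matched.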

Additional observations from a re-analysis of the deposited data

How the results depend on the processing

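In the pool, 5 to 7 genes passed in every setting tried (6 in the report), a count that takes either direction and any of the genes. With equal class weights Acan and Alpl passed as higher and Mgp, Ibsp and Chad as lower. Sox9 and Comp did not pass with those weights. In smooth muscle cells (1 in the report) 2 passed by limma-voom and on the deposited log values, Alpl being the second, and 1 to 2 when each library was left out. In modulated cells (2 in the report) none passed with no filter on low values, 1 when cells were classed by cluster, and 0 to 4 when each library was left out. In fibroblasts (1 in the report) none passed with a pseudocount of 0.01 or by limma-voom, and 0 to 1 when each library was left out. On the deposited log values 1 passed, but it was Comp (0.31) and not Mgp (-0.049). The fibroblast fits by stricter limits and by cluster, and all fits of cartilage-like cells between the groups, could not be run, for want of 20 cells in a library. A fit without an Apoe-/- library left 1 library in that group. Its p-values, which enter the counts above, hold no spread of that group. Under stricter limits the share of gated cells differed by -13.2 points for smooth muscle (-14.7 in the report's gates) and by 9.03 for modulated cells (10.3). The fit with the replicate number as a block, a number that does not pair the libraries, changed no count, at 6 in the pool, 2 in modulated cells and 1 each in smooth muscle cells and fibroblasts. Of 405 values of single genes under alternatives, 339 kept direction and side, 12 passed in addition, 19 no longer passed and 35 changed sign. Mgp in the pool turned to -0.040 on the deposited log values and to -0.36 with equal class weights, and with those weights Chad was -2.32 and Ibsp -1.34. The rest were differences that had not passed. In smooth muscle, Sox9 (0.01) was -0.067 by limma-voom, -0.033 with the block, -0.0013 by cluster and -0.0062 on log values, and Comp (-0.08) was 0.029 with the block and 0.00078 on log values. In modulated cells, Alpl (-0.13) was 0.050 with the block, 0.69 by cluster, 0.50 under stricter limits and 0.17 without the cartilage-led cluster, Ibsp (0.33) was -0.049 with a pseudocount of 0.5 and -0.014 on log values, Comp (0.30) was -0.014 on log values and -0.21 without the cartilage-led cluster, and Sox9 (-0.38) was 0.16 by cluster. In fibroblasts Sox9 (-0.13) was 0.030 on log values, and Runx2 between cartilage-like and modulated cells (0.51) was -0.15 under stricter limits. With each library left out, the ranges that crossed 0 were -0.062 to 0.079 for Sox9, -0.13 to 0.10 for Acan and -0.15 to 0.029 for Comp in smooth muscle cells, -0.62 to 1.22 for Comp, -0.72 to 0.46 for Alpl, -0.26 to 2.07 for Chad and -1.66 to 2.31 for Ibsp in modulated cells, -0.32 to 2.88 for Alpl and -0.24 to 0.028 for Sox9 in fibroblasts, and -0.10 to 0.93 for Chad in the pool. The causes were not tested. Depth limits Runx2, Chad and Ibsp outside cartilage-like cells, where most cells held no UMI.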
